A study of Drosophila melanogaster with 3 samples.

Results

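The peaks described here are 1070 binding regions of the chromatin remodelling protein E(bx) that stood among the strongest peaks of replicate 3 and had no partner among the strongest peaks of replicates 1 and 2. They were selected on measured values: from each replicate's dm6 list the peaks with the highest signal value were taken, as many as the authors' IDR set holds (called the best peaks here), and a peak of replicate 3 became a member when its summit had no summit of replicate 1 or replicate 2 within 200 bp. Members made up 11.02% of the best peaks of replicate 3 (95% Wilson interval 10.4 to 11.7). The other 8638 best peaks of that replicate, 7774 of them with a summit in both other replicates, serve as the comparison. The study is a chromatin immunoprecipitation with sequencing of whole fruit fly embryos, mixed sex, collected at 0 to 16 h from 1 transgenic line that expresses E(bx) with green fluorescent protein fused to its C terminus. All 3 libraries belong to the same group and carry the same transgene, so no genotype or treatment was compared. They come from 3 biosamples of 1 donor line, and sonicated fragments measured 200 to 800 bp. The description gives the antibody as anti-GFP, the antibody field as E(bx), and a whole embryo mixes all its cell types.

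E(bx), also called NURF301, is the large scaffold protein of the NURF complex, which slides nucleosomes with the ATPase Iswi as its motor. NURF is known for opening chromatin at promoters together with GAGA factor, the product of Trl, which binds runs of GAGAG. The promoters of broadly expressed fly genes often carry other elements, among them the DNA replication-related element DRE (TATCGATA) and Motif 1, with the core GGTCACAC used here.

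The sequences below run from 50 bases before to 50 bases after the summit, read from the plus strand of the Release 6 genome, whose coordinates match dm6. Capitals mark every GAGAG and its reverse complement CTCTC. The first 3 are the strongest members at promoters after that of ttv, which is described further on without its sequence, and show the form most of the strongest members have: a further summit 202 to 321 bp from a shared promoter peak, with no GAGAG.
CG11658 (chr3L:11708542-11708642): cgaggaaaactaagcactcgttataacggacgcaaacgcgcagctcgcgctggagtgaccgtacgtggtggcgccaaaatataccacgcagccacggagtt
RpL18 (chr3L:7241392-7241492): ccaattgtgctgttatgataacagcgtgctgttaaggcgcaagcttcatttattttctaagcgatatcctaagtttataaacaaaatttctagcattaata
CG12321 (chr3R:18188766-18188866): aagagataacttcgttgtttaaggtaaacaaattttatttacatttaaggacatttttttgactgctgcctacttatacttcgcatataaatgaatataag
The next 4 are among the strongest members away from start sites. The member inside an intron of Tlk, the Tousled-like kinase gene, carried 9 overlapping matches in the bases shown, that in sqz, a zinc finger gene, carried 1, and those in CycG, a cyclin gene, and near CG10479 carried 0.
Tlk (chrX:3740862-3740962): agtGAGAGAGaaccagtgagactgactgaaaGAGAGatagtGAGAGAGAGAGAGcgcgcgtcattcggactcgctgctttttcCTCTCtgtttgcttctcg
CycG (chr3R:31608779-31608879): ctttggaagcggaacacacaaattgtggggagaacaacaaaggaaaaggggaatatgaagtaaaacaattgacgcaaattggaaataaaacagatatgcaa
CG10479 (chr3L:5967220-5967320): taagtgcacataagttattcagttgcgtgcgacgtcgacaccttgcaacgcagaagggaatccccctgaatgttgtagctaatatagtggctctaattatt
sqz (chr3R:19165795-19165895): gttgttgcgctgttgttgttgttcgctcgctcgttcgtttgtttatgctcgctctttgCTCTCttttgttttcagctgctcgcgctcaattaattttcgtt
For contrast, the 2 strongest peaks of replicate 1 that were found in replicate 2 and not among the best of replicate 3 had 0 matches. They lie between genes, 6810 bp downstream of the CG4702 start site and 6353 bp downstream of that of CG14186.
CG4702 (chr3R:12121341-12121441): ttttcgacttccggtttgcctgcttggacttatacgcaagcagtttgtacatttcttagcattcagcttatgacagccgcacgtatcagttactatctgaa
CG14186 (chr3L:20097424-20097524): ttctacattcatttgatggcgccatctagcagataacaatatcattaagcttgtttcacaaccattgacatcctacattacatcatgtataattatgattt
The last 4 are among the strongest members that stood alone in replicate 3 and held the 7-base run GAGAGAG, or its reverse complement, within the printed bases. They were chosen for that run to show what it looks like, so their match counts of 4, 6, 7 and 8 support nothing.
siz (chr3L:21047943-21048043): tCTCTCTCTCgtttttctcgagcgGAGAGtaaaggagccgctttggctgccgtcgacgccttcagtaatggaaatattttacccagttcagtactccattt
pum (chr3R:9158196-9158296): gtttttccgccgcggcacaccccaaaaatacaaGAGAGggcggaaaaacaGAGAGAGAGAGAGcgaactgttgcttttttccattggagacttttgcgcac
Delta (chr3R:19322032-19322132): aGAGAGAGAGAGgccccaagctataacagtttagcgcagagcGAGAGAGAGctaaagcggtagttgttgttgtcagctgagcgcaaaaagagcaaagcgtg
Tob (chrX:16089453-16089553): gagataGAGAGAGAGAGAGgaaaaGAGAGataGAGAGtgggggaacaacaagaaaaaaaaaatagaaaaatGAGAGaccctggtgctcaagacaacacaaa

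The name of the set goes further than the data. Of the 1070 members, 723 (67.6%, 64.7 to 70.3) had a weaker summit within 200 bp in the full list of replicate 1 or replicate 2, which reach to rank 30000 and 28972. A partner was listed for 613 members in replicate 1, at a median rank of 13047, and for 567 in replicate 2, at a median rank of 12741. Both full lists held a partner for 457 members (42.7%), and neither did for 347 (32.4%). The best partners ranked 9714 and 9721, just past the end of the best list, so membership often records a place in the ranking and not absence from a library's full list. How many of the low-ranked partners are background calls or lie within 200 bp by chance was not tested. The list called on the pooled reads, which include replicate 3, held a summit at 941 members (87.9%), and the authors' IDR set, the peaks retained for consistency between replicates, at 433 (40.5%, 37.6 to 43.4), against 97.8% of the other best peaks. For 90 members (8.41%) the IDR set held a summit while neither full list did. A summit in that set therefore does not by itself show a summit at that place in replicate 1 or 2. Only 113 members (10.6%) had no summit within 200 bp in any other dm6 list.

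**Figure D1:**
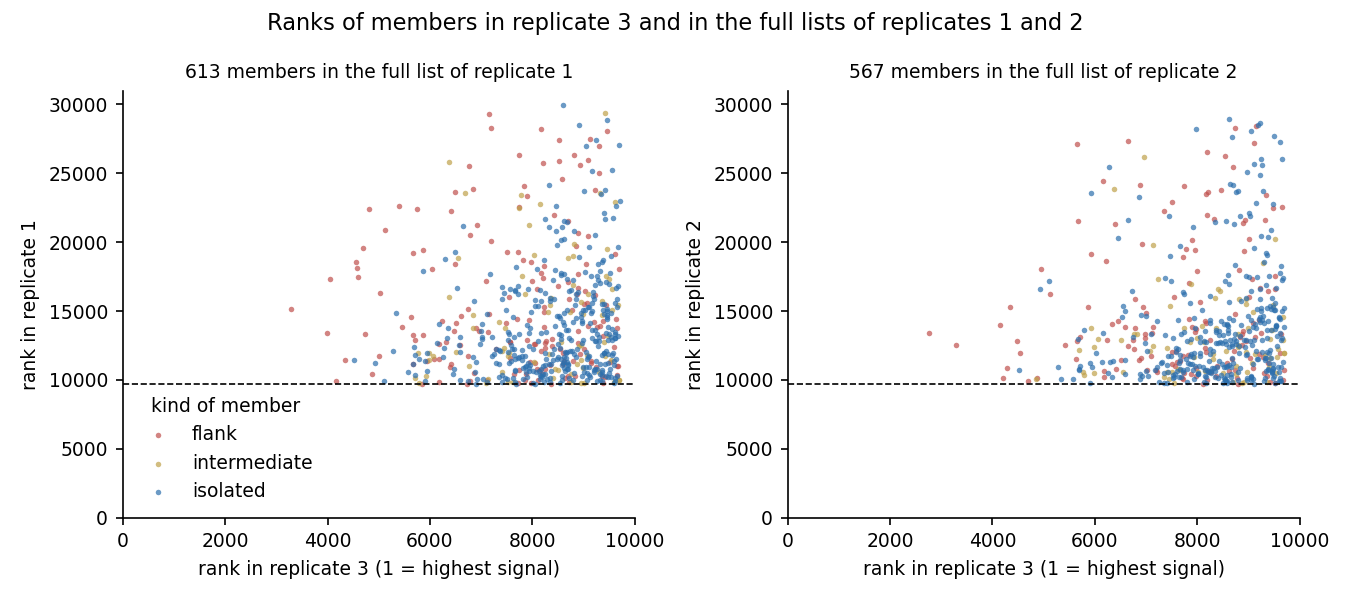
Rank of each member in replicate 3 (horizontal) against its rank in the full list of replicate 1 (left, 613 members) or replicate 2 (right, 567 members), for members with a partner within 200 bp. The dashed line is the end of the best list, below which the rule leaves no point; the points crowd just above it and thin out towards the end of the lists.

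By signal, members were mostly weak peaks, as the rule favours. Their signal value in replicate 3 ran from 82.39 to 406.1 with a median of 105, against a median of 236 for the other best peaks. The strongest member ranked 1702, the median member 8260, and 783 of 1070 (73.2%) lay in the weakest of 4 equal rank classes, which starts at rank 7282. The scale of the signal value is not stated, so it ranks peaks within a list and was not compared between libraries. At the limit, the last members inside lay near mRpL40 (rank 9705, 82.41), inc (rank 9707, 82.41) and TfIIA-S (the last rank, 82.39). The first peaks outside that would otherwise have qualified lay near CG13334 (rank 9709, 82.38) and RhoGAP19D (rank 9710, 82.37).

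Applied to the other replicates, the same rule found 548 peaks in replicate 1 only and 583 in replicate 2 only, so replicate 3 had the most. Members were then sorted by their spacing in replicate 3, with limits set after the spacing had been seen. Flank members, 525 of 1070 (49.1%, 46.1 to 52.1), had a shared best summit of the same library within 400 bp. Isolated members, 431 (40.3%, 37.4 to 43.2), had no other best summit of replicate 3 within 1000 bp. The remaining 114 (10.7%) were intermediate. Among peaks of replicate 1 only, 72 were flank and 369 isolated, and among peaks of replicate 2 only, 34 were flank and 365 isolated. The 3 replicates thus differed most in flank summits, with 525, 72 and 34, and less in isolated ones, with 431, 369 and 365.

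**Figure D2:**
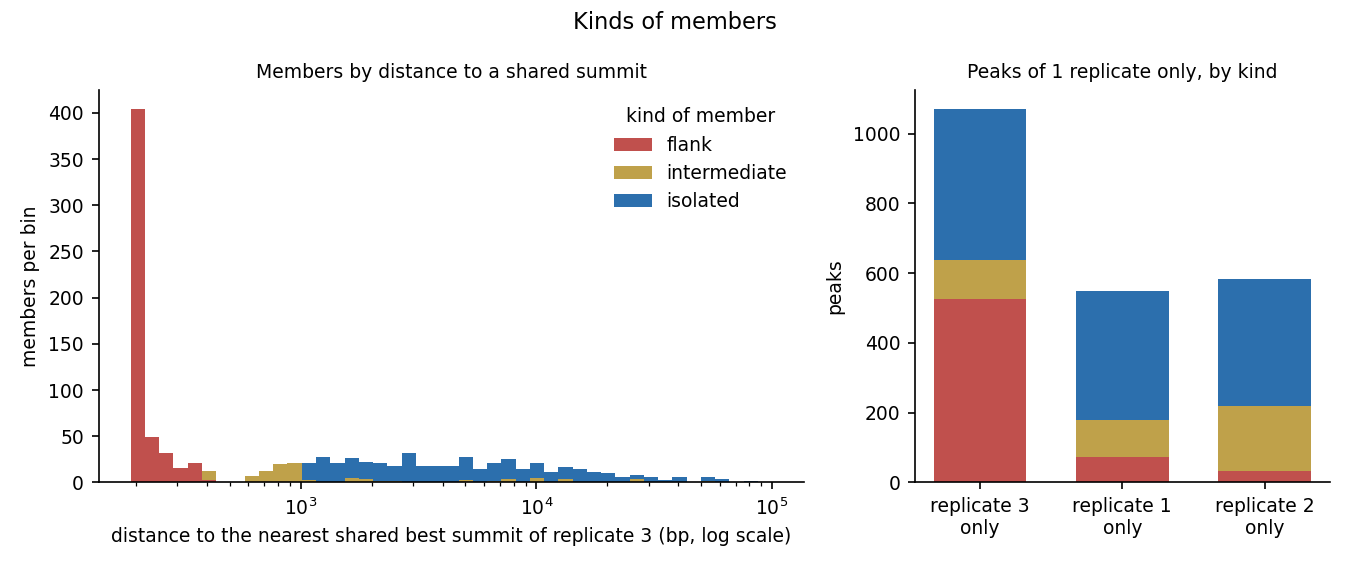
Left, members by the distance from their summit to the nearest shared best summit of replicate 3 (bp, log scale), coloured by kind. Right, peaks found in replicate 3, 1 or 2 only, stacked by kind. Flank members pile up at the shortest spacing, and replicate 3 has 525 of them against 72 and 34.

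Flank members were second summits next to a shared peak. Of the 525, 367 lay within 210 bp of it (median 205 bp, range 199 to 400), and 199 bp was the smallest spacing between any summits of a replicate list. The peak was therefore called as separate at about the same distance at which the 200 bp rule stops counting it as a match. The member was weaker than its neighbour in 478 of 525 cases (91.0%), an order that the rule favours. The median signal ratio, on that unstated scale, was 0.424 (quartiles 0.281 and 0.642). In other close pairs, neither summit a member, the median ratio of the weaker to the stronger was 0.498, 0.483 and 0.493 in replicates 3, 1 and 2. The shared neighbour of a flank member had a summit in all 3 replicates in 488 cases (93.0%) and a median rank of 3241. Of all 8638 other best peaks, 7774 had a summit in all 3, so the share is not called particular to these neighbours. The called region overlapped a best region of replicate 1 or 2 for 487 flank members, against 14 isolated members. Close pairs were commoner in replicate 3 as a whole: 4564 of its best summits (47.0%) had another best summit within 400 bp, against 2576 (26.5%) in replicate 1 and 2215 (22.8%) in replicate 2. The sources used here do not say whether depth, fragment length or calling settings differed between the libraries, and their part was not tested.

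Most flank members sat at promoters, on the downstream side of the main peak. A summit within 500 bp of an annotated start site was present for 448 of 525 flank members (85.3%, 82.1 to 88.1), for 719 of all 1070 members (67.2%, 64.3 to 69.9), and for 78.2% of all best peaks of replicate 3. The promoter flank summits had a median position of +101.5 bp relative to the start site, with 266 downstream and 182 upstream. Their shared neighbours had a median of -40.5 bp. The member lay further downstream than its neighbour in 331 of 448 pairs (73.9%, 69.6 to 77.7). The weaker summit of other close pairs, neither of them members, did so in 1228 of 1595 promoter pairs of replicate 3 (77.0%, 74.9 to 79.0), in 73.5% in replicate 1 and in 73.6% in replicate 2. The interval for members overlaps that for the other pairs of replicate 3, so the downstream placement is not called particular to members.

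**Figure D3:**
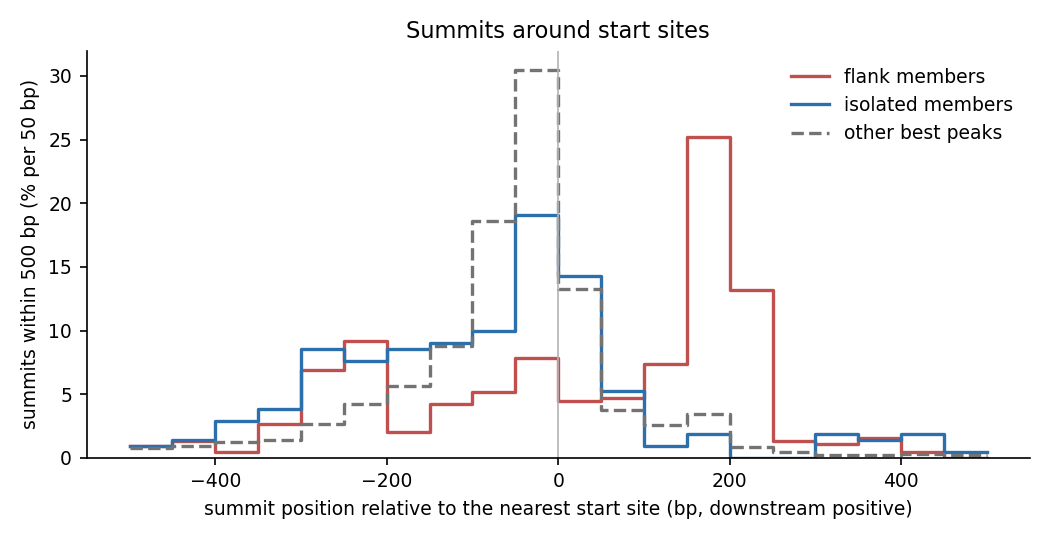
Position of summits within 500 bp of the nearest start site (downstream positive), as percent of each set per 50 bp: 448 flank members, 210 isolated members and 6868 other best peaks of replicate 3. Isolated members and other best peaks are highest in the 50 bp upstream of the start, flank members at 150 to 250 bp downstream, with a lower rise about 250 bp upstream.

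The 10 strongest members were 9 flank summits and 1 intermediate one. The strongest lay 3 bp downstream of the start of ttv (chr2R:14525965-14526782), which encodes a heparan sulfate polymerase needed for Hedgehog to spread. It ranked 1702 in replicate 3 with a signal value of 406.1, next to a shared peak of 401.5 at 225 bp, and was in neither full list of the other replicates. CG11658 (rank 1857), RpL18, a ribosomal protein gene (rank 2046), CG12321 (rank 2110) and CG31122 (rank 2349) followed, all within 109 bp upstream of a start site and all unlisted in replicates 1 and 2. Unlike most flank members, 6 of the 9 flank summits named here exceeded their shared neighbour: those at ttv, RpL18 (379.5 against 334.2 at 202 bp), CG12321 (373.6 against 341.9), CG31122 (354.4 against 332.3), peng (344.8 against 287.2) and Tlk (343.9 against 176.7). The member at CG14043 (rank 2754) stood 200 bp from the peak ranked 20, at 326.6 against 864, and was listed in replicate 2 at rank 13398 and not in replicate 1. The other 4 lay at peng (rank 2477), in the intron of Tlk (rank 2492), at eff, which encodes a ubiquitin-conjugating enzyme (rank 2897), and at the transfer RNA gene tRNA:Ala-CGC-1-3 (rank 2630), the intermediate one, 972 bp from the next shared summit. None of these 4 had a partner in the full lists of replicates 1 and 2.

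Isolated members behaved differently in the other lists. Of 431, 396 (91.9%, 88.9 to 94.1) had a partner in the full list of replicate 1 or 2 and 307 (71.2%, 66.8 to 75.3) in both, against 231 (44.0%) and 90 (17.1%) of the 525 flank members. The median rank of the partner was 12765 in replicate 1 and 12649 in replicate 2. Most isolated members were thus listed in every library, and 35 (8.12%) were listed in neither other library. That every partner ranked lower than the member follows from the rule, which leaves partners only past the end of the best list. Whether the low-ranked partners mark binding in replicates 1 and 2 was not tested. The IDR set held 182 of them (42.2%). In 68.9% of isolated members the called region had a width of exactly 520 bp, the commonest width in that list, against 26.9% of flank members. That width went with weak isolated peaks in general: in the weakest rank class 76.5% of 374 isolated members had it (71.9 to 80.5) and 59.8% of the 741 other isolated peaks (56.2 to 63.3). Isolated peaks of replicate 1 only and of replicate 2 only had the commonest width of their own lists, 400 and 380 bp, in 97.6% and 100% of cases.

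The strongest isolated member lay in an intron of Acsl, the gene of an acyl-CoA synthetase that activates long-chain fatty acids (chr2R:8668578-8669150). It ranked 4514 in replicate 3, 11437 in replicate 1 and 10751 in replicate 2, and the 100 bases on each side of its summit held 19 overlapping matches to GAGAG or CTCTC. A further isolated member of the same gene, 290 bp upstream of a start site, ranked 5673, 11135 and 12952 in replicates 3, 1 and 2. The member 233 bp upstream of a start of siz, which encodes an exchange factor for Arf GTPases, ranked 5275, 12125 and 10954 and held 15 matches. That 296 bp upstream of a start of pum, the gene of the translational repressor Pumilio, ranked 5698, 10391 and 10819 and held 7. In each of these cases the partner was listed in both other libraries, at ranks between 10391 and 12952. The member at run, a pair-rule gene, ranked 5683, 12384 and 10738 with 1 match, and that at tRNA:Gln-CTG-3-1 ranked 4925, 11213 and 16580 with 0.

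Isolated members lay at promoters less often than the best peaks as a whole, as did other weak isolated peaks. A start site was within 500 bp of 210 of 431 isolated members (48.7%, 44.0 to 53.4). In the weakest rank class the share was 47.6% of 374 isolated members, against 47.2% of 741 other isolated peaks, and in the class above it (ranks 4855 to 7281) 57.1% of 56 against 62.2% of 965. Of the 431, 141 (32.7%) were intronic and 52 (12.1%) intergenic, against 30.1% and 15.7% of the 741. Their median promoter position was -70 bp, near the -66 bp of those other isolated peaks. The intervals of these shares overlapped. For intergenic summits they were 9.32 to 15.48 and 13.22 to 18.45, and each share lay outside the other's interval. The 741 come from the weakest rank class only and the 431 do not. By chromosome arm, members made up between 10.4% of the best peaks on X and 15.6% on chromosome 4, where they numbered 20 of 128. Of the flank members, X held 13.3% of flank members (10.7 to 16.5), against 17.8% of the other best peaks (17.0 to 18.6), and 2R held 25.1% (21.6 to 29.0), against 20.6% (19.7 to 21.4). The isolated members' share on X was 19.03% and on 2R 19.3%, with Wilson intervals that hold the shares of the other best peaks.

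Of 23 short consensus sequences searched on both strands within 100 bp of the summit, GAGAGAG stood out at isolated members, an observation made after all 23 had been seen. It was present in 133 of 431 isolated members (30.9%, 26.7 to 35.4), in 38 of 525 flank members (7.24%) and in 207 of all 1070 members (19.3%), against 10.2% of all best peaks of replicate 3 and 4.40% of windows at all annotated start sites. Among weak isolated peaks the gap was narrower: 30.7% of 374 isolated members of the weakest rank class (26.3 to 35.6), against 20.8% of 741 other isolated peaks of that class (18.02 to 23.9). The members of that class were still the weaker set, with a median rank of 8739 against 8339, and the part of rank in the remaining gap was not tested. Within that class the shares were 29.8% of 178 members and 17.4% of 350 others at promoters, and 31.6% of 196 members and 23.8% of 391 others away from them, where the intervals overlap (25.5 to 38.4 and 19.8 to 28.2). The shorter GAGAG, which every GAGAGAG contains, was in 57.3% of isolated members and 27.9% of all best peaks, and within the weakest rank class in 55.9% of isolated members (50.8 to 60.8) and 46.4% of the 741 others (42.9 to 50.02). Uninterrupted GA runs of 9 bases or more were present in 20.4% of isolated members, 19.5% of those in the weakest rank class, 11.2% of the 741 other isolated peaks of that class and 4.70% of the 915 isolated peaks shared by replicates 1 and 2 only. Mean GC content was 44.7% ± 7.71 (SD over windows) at isolated members and 44.0% ± 8.21 at the 741 other isolated peaks.

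The GAGA share depends on where the lists are ended. With lists of 0.5 of the length it was 20.1% of all 364 isolated members against 7.14% of 616 other isolated peaks of the weakest rank class, and with the best 15000 it turned round, 11.9% of 1139 against 18.1% of 973. The share among isolated peaks found in replicate 2 only was 24.1% (20.0 to 28.8), an interval that overlaps that of replicate 3, and in replicate 1 only it was 13.8% (10.7 to 17.7). The run is therefore not called particular to replicate 3. Isolated peaks of replicates 1 and 2 that were missing from the best of replicate 3 held it in 9.95% of 915 cases. Among peaks found in all 3 replicates, which are no members, 381 of 616 with GAGAGAG (61.9%, 57.9 to 65.6) ranked better in replicate 3 than on average in replicates 1 and 2, against 52.2% of 7158 without it. The shares were 64.7 and 54.7% at promoters and 58.3 and 40.1% away from them. The 2 sets were not matched for rank: the median rank in replicate 3 was 5609 with GAGAGAG and 3778 without it. Those ranks come from the same readout as the rule and describe these libraries only.

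**Figure D4:**
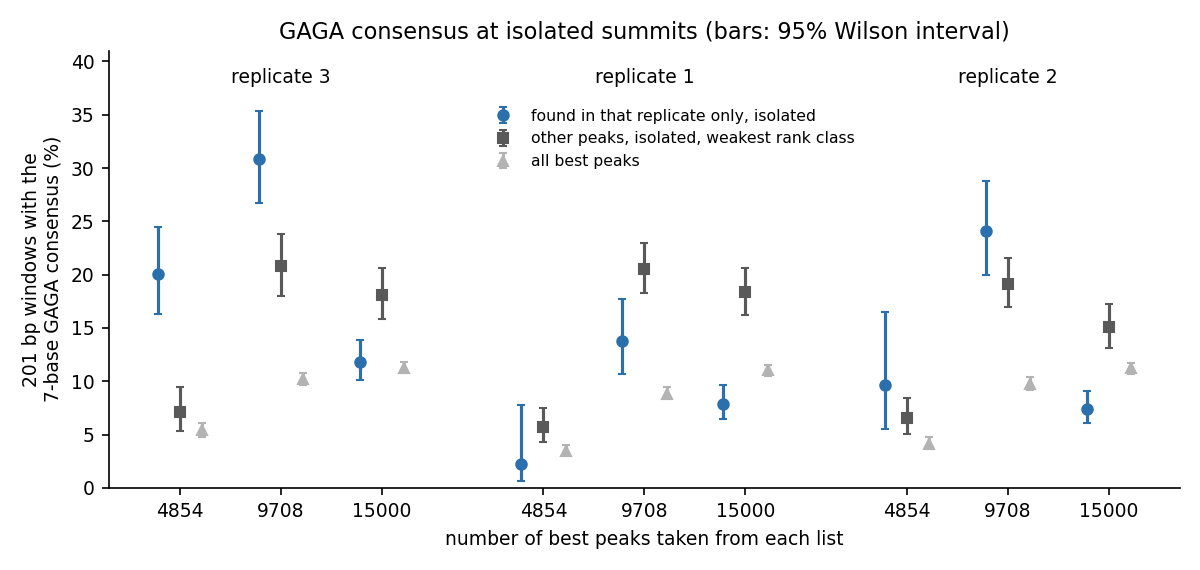
Share of windows (100 bp to each side of the summit) with the 7-base GAGA consensus on either strand, for best lists of 0.5 of the length used here, of that length and of 15000 peaks (left to right), in replicates 3, 1 and 2. Circles are isolated peaks found in that replicate only, squares other isolated peaks of the weakest rank class, triangles all best peaks, with 95% Wilson intervals; in replicate 3 circles lie above squares at the shorter 2 lengths and below them at 15000.

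The promoter elements of broadly expressed genes were rarer among members. DRE was present in 27 of 1070 members (2.52%), against 10.3% of the other best peaks and 5.45% of all start sites, and the Motif 1 core in 11 (1.03%), against 9.48% and 4.76%. In flank members the shares were 2.67% and 1.14%. Their windows are centred a median of 205 bp from the shared summit, and no set matched for that spacing was compared. Among isolated peaks of the weakest rank class the shares were 1.87% of members and 2.97% of the others for DRE, and 0.802% and 2.16% for Motif 1, so weak isolated peaks that were no members lacked them as well. CGATA, the BEAF-32 core that lies inside DRE, was in 24.6% of members and 39.8% of all best peaks, and among weak isolated peaks in 22.7% of members and 26.9% of the 741 others. The dinucleotide repeat CACACACA was in 11.7% of members, against 6.10% of the other best peaks and 12.7% of the 741 weak isolated ones. A match says only that the letters are in the window and does not show that a factor was bound there.

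Members touched 1277 of 13945 protein-coding genes (9.16%), counting a summit in the gene body or up to 2000 bp upstream of a start site. Isolated members touched 425 (3.05%) and flank members 802 (5.75%). The share was higher in longer genes: isolated members touched 0.803% of genes in the shortest of 4 equal length classes and 8.18% in the longest, of 4999 bp or more. The most members in a gene body were 6 in lncRNA:CR44357, 5 in jing and in CG9380, and 4 in the ecdysone-response genes EcR and Eip75B, genes of 71691 to 239347 bp that held 7 to 19 best summits of replicate 3 in all. Gene lists were read against these shares without a test. Where a list of protein-coding genes held 4 or more isolated members' genes, those genes are named here after their values were seen.

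Among lists of patterning and signalling genes, those touched by isolated members ranged from 0 of 8 Hox genes and 0 of 20 BMP and activin genes to 4 of 10 pair-rule genes, and those described next were picked for their high counts. In the gap and head patterning list 6 of 18 genes were touched (33.3%, 16.3 to 56.2), 5 of them at the promoter, with a median gene length of 3211 bp against 2166 bp for protein-coding genes. These were Kr, a gap gene repressor (rank 7063, 83 bp upstream of the start), knrl (ranks 6585 and 9631), the terminal genes hkb (7884, 191 bp upstream) and tll (8596, 161 bp upstream), the head gene cnc (7354) and slp2 (9265). Of these, knrl, tll and cnc carried GAGAGAG in a member window, and Kr, hkb and tll had no partner in either full list. In the pair-rule list 4 of 10 were touched: run (5683), odd (8144, 32 bp downstream of the start), slp2, which both lists hold, and Ten-m (9474). Peaks of replicates 1 and 2 only touched 0 genes of either list. Most genes of these lists had a peak in any case: 15 of 18 and 9 of 10 genes had some best peak of replicate 3, against 56.0% of protein-coding genes.

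Notch pathway genes had isolated members at 6 of 22 genes (27.3%, 13.2 to 48.1). They included the ligand gene Delta (rank 5908, 4135 bp downstream of the start in an intron, GAGAGAG present), the receptor gene N (8741), the coactivator gene mam (8245) and fng, whose product modifies the receptor (9156). The targets E(spl)m7-HLH (7478) and E(spl)mbeta-HLH (9471), which encode repressors, had theirs 290 and 55 bp upstream of the start. The strongest member of the list was a flank summit at rank 3354, counted for mam. It lay 439 bp upstream of the mam start and nearer, at 57 bp upstream, to that of RN-tre. Delta ranked 11378 in replicate 1 and 9757 in replicate 2, while N and E(spl)m7-HLH were in neither full list. EGFR and FGF signalling had 5 of 16 with an isolated member, in a list of long genes (median 18177 bp) of which 81.25% had some best peak. They were the receptor gene Egfr (8160, 148 bp upstream, ranks 10791 and 12774 in replicates 1 and 2), the FGF ligand gene ths (9660), S, whose product carries ligand precursors to be processed (9456), the ETS factor gene pnt (8602) and edl (9241). The strongest of that list was a flank summit of the inhibitor gene sty (5846). Adhesion and tissue morphogenesis had 8 of 23 (34.8%, 18.8 to 55.1) and 0 flank genes, with a median gene length of 14534 bp. They were ds and ft, the large cadherins of planar polarity (8528 and 9401), fj, a kinase that modifies them (9415), the integrin genes if (8328) and mew (8094), Nrg (9223), Nrt (8938) and sdt (9323). Ecdysone response had 5 of 22 (22.7%), namely EcR (3 isolated members, best rank 6531), Eip75B (9663), Hr3 (9058), Hr4 (8274 and 8683) and ImpL2 (7711 and 8759), and peaks of replicates 1 and 2 only touched 10 of these 22. The median gene length of that list was 26776 bp, and 72.7% of its genes had some best peak.

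Flank members were counted on the same lists, with 4 of 22 ecdysone response genes (18.2%), 3 of 21 Wnt genes (14.3%) and 3 of 22 Notch genes (13.6%). Whether the kinds differ between lists was not tested. Insulator and GAGA factor genes had 6 of 15 with a flank member (40.0%, 19.8 to 64.2) and 0 with an isolated one. They were CTCF (rank 5009, signal value 206.9), su(Hw) (6452), Ibf1 and Ibf2, which share a start region and the same member (7157), Clamp (7349) and Trl itself (7957, in an intron 1754 bp from the start). All 15 genes had some best peak. Mitochondrial ribosomal protein genes had 8 of 75 with a flank member (10.7%) and 0 with an isolated one, and cytosolic ribosomal protein genes 8 of 93 (8.60%) and 1, close to the 5.75% of protein-coding genes given the widths of these intervals (5.51 to 19.7 and 4.42 to 16.1). BMP and activin genes had 5 of 20 with a flank member and 0 with an isolated one, among them the receptor genes sax (7704) and tkv (8643), the target repressor gene brk (8197) and the inhibitor gene Dad (7913). Hedgehog genes had 3 of 11, including disp (7331) and the receptor gene ptc, whose flank member ranked 6233 and carried GAGAGAG, with a further isolated member at position -1827 bp from the start, at rank 7433. Of the 8 NURF and ISWI genes, tou (3 members, best rank 7611) and Caf1-55, a histone chaperone gene (9395), were touched.

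Some lists had few touched genes. Cuticle protein genes had 0 of 123 with an isolated member, which allows up to 3.03% by the upper Wilson bound, and 1 with a flank member, Cpr60D (rank 9627). Chemosensory receptor genes had 2 of 179 isolated (1.12%, 0.307 to 3.98) and 3 of 179 flank (1.68%, 0.572 to 4.81). For microRNA genes both counts were 4 of 260 (1.54%, 0.600 to 3.89). For snoRNA genes they were 2 of 269 (0.74%, 0.204 to 2.67) and 7 of 269 (2.60%, 1.27 to 5.27). Among all genes the shares were 2.84% isolated and 4.99% flank. The intervals of the chemosensory and microRNA isolated shares and of the snoRNA flank share hold these values. A best peak of any kind was present at 8.13% of cuticle, 9.50% of chemosensory, 23.1% of microRNA and 58.0% of snoRNA genes, against 56.0% of protein-coding and 49.2% of all genes. Transfer RNA genes, copied in clusters and only 73 bp in the median, had 46 of 290 with a member (15.9%, 12.1 to 20.5), 14 of them isolated and 30 flank, beside 64.8% with any best peak. Among all genes 8.18% had a member. In a cluster 1 member can be counted for several genes, so the 46 are not independent and the interval does not allow for that. Short reads from near-identical transfer RNA copies can be placed at more than 1 copy, and how such reads were mapped is not said in the sources used here.

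**Figure D5:**
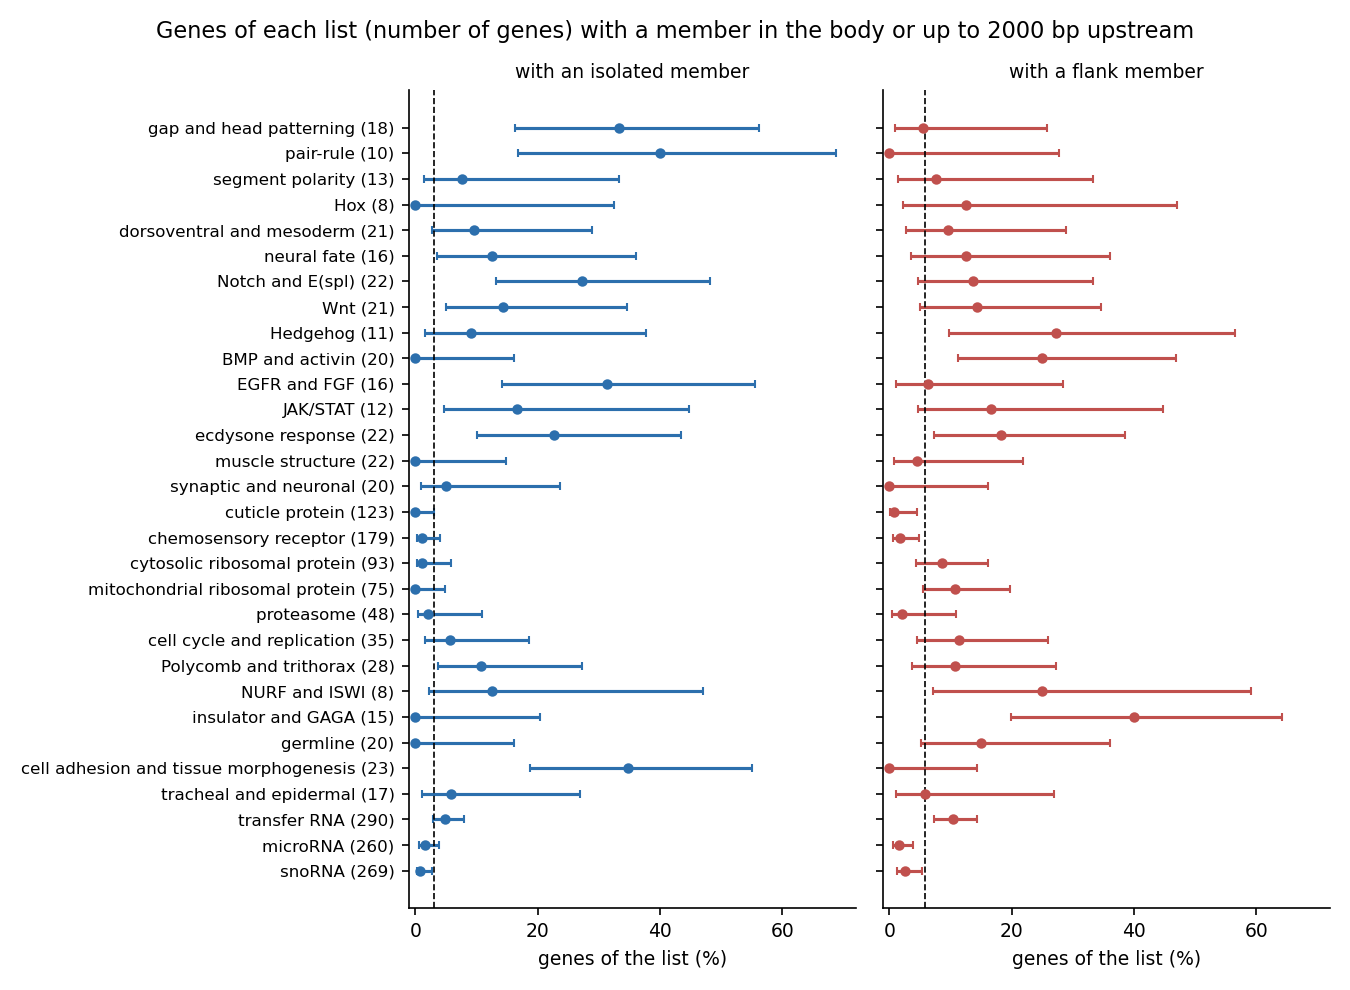
Percent of the genes of each list (number of genes in brackets) with an isolated member (left) or a flank member (right) in the body or up to 2000 bp upstream, with 95% Wilson intervals. Dashed lines are the shares of all protein-coding genes, 3.05% and 5.75%; pair-rule, adhesion, gap, EGFR and Notch lists lie furthest right on the left panel, and insulator genes on the right panel.

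In the remaining lists the genes with the strongest members, at most 2 per list, were as follows, each with the rank of its strongest member. Segment polarity had ptc and arm (rank 6965), and Hox had Abd-B (6182). Dorsoventral and mesoderm genes had ush (6193) and vnd (7853), and neural fate genes nub (8196) and insc (9016). Wnt genes had Axn (5932) and sgg (6378), JAK/STAT genes Socs36E (4998) and Ptp61F (6362). Muscle structure had Tm1 (5445), synaptic genes dlg1 (8690) and unc-13 (8719). Proteasome genes had Prosalpha4 (6840) and Rpn1 (7485), and cell cycle genes Mcm6 (5032) and Cdk1 (6439). Polycomb and trithorax genes had caly (6166) and Asx (7631), germline genes stai (6403) and tud (7037), and tracheal and epidermal genes grh (7718) and sn (9032). All these ranks in replicate 3 lie between 4998 and 9032. In lists described above, the genes with the strongest members were Hr78 (5046) and EcR (5852) for ecdysone response, and arm and baz (7780) for adhesion. Cytosolic ribosomal protein genes had RpL18 and RpL35A (5902), and mitochondrial ones mRpL23 (6261) and mRpS16 (6446). Chemosensory genes had Ir60e (5711) and Gr59e (8627), transfer RNA genes tRNA:Ala-CGC-1-3 and tRNA:Glu-TTC-1-1 (3984), and microRNA genes mir-4949 (4865) and mir-13b-1 (5933). The snoRNA genes snoRNA:Psi18S-640a and snoRNA:Psi18S-525b share 1 member (3755). A summit up to 2000 bp upstream of a gene can also lie in a neighbour, as that counted for Cdk1 lies in da, that of mir-4949 in CG12054 and that of mRpS16 in cg. Among others, those of disp, Axn (5932), Cpr60D and Gr59e lie in ECSIT, Mgat2, ND-19 and AIMP3. The start site nearest to the EcR summit at rank 5852 is that of tRNA:Asn-GTT-1-1.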

How the data were processed

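Chromatin immunoprecipitation with sequencing was done on 3 biological replicates of 1 group. The peak lists were used as deposited by the authors; the aligner, the peak caller with its settings and the threshold of IDR (a measure of reproducibility between replicates): not given in the sources used here. Per the deposited file records, each replicate list derives from its alignment and 1 further file shared by the lists of that build, whose content is not stated. The signal value was used, in the deposited lists' own unstated scale, to rank peaks within a list. The −log10 q-value of the deposited lists had the same highest value (4.455) at all 9708 best peaks of replicate 3 and could not rank them. The lists give no read counts, so the depth of each library is unknown. Control data were not analysed here.

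Summits were matched within 200 bp and annotated with the gene models of Ensembl release 115 on the Release 6 genome, which reaches past every peak on the 6 arms; 18164 genes and 23581 distinct start sites were used, transposable elements left out. A promoter summit lay within 500 bp of any start site. Kinds of members, 4 rank classes, 23 consensus sequences in 201 bp windows and 30 gene lists were described by counts with 95% Wilson intervals, which cover counting error only; peaks are not replicates and no test was run. Of 399 list entries, 11 were matched through RefSeq synonyms and 0 were unmatched; spellings of 7 symbols were set to those of the annotation. The members and lists were chosen with earlier results of these data known.

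The genes named are those at the 10 strongest members and at the last 2 inside the limit, the 5 with the most members in the body and the 2 with the strongest member of each list; others were chosen after their values were seen. Sequences shown are the 4 strongest promoter and 4 strongest distal members outside 2R, less CG31122, and the 2 strongest peaks of replicates 1 and 2 only. The window of CG31122 covers 35 untranslated bases, and that of CG11658, which is shown, covers 12. The 4 isolated ones were added later. Alternatives of matching distance (100 and 500 bp), overlap, list length (4854 and 15000), promoter window, motif window and replicate left out were tried. The scripts were checked on simulated peaks. Python 3.11.15, numpy 2.4.6, pandas 2.3.3 and scipy 1.17.1 were used.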

Additional observations from a re-analysis of the deposited data

How the results depend on the processing

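The number of members follows the rule closely. It was 1916 when matching within 100 bp, 499 within 500 bp and 552 by overlap of the regions, 525 with lists of 0.5 of the length and 2520 with the best 15000 peaks, and 347 against the full lists. The share at promoters was 74.4, 48.9, 50.7, 81.1, 44.3 and 80.7% under the same settings in that order, 54.2 and 74.2% with start site windows of 250 and 1000 bp, 62.6% with protein-coding start sites and 48.7% for isolated members alone. The share in the reproducible set was 33.7% at 100 bp, and the share in both full lists 21.9% at 100 bp and 81.4% at 500 bp. With only 1 of the other replicates searched, the count ranged from 1494 to 1510, the promoter share from 66.9 to 68.8% and the share in the reproducible set from 52.8 to 53.4%; replicate 3 cannot be left out, since the members come from it. Within 50 and 200 bp of the summit, members held GAGAGAG in 11.5 and 27.1% and Motif 1 in 0.467 and 3.27%, and DRE in 4.67% within 200 bp. Protein-coding genes with a member numbered 811 at promoters alone and 828 by nearest start site.

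Chosen after seeing the data, the isolated count was 1139 with the best 15000 peaks and 35 against the full lists. The GAGAGAG share of isolated members was 20.1% with lists of 0.5 of the length, 11.9% with the best 15000, 25.7% against the full lists, 18.6% within 50 bp and 41.1% within 200 bp. Its difference from other weak isolated peaks, 10.1 percentage points, reversed to -6.24 with the best 15000 and was 1.45 against the full lists, where 35 members remain, and stayed between 5.34 and 13.4 otherwise. The cause was not tested. No paired analysis was possible because there is 1 group. Depth per library is unknown, so no limit from it can be given, and 1 library cannot show how often a further replicate would yield such peaks.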
